A study of Homo sapiens with 6 samples.

Results

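Abundant long noncoding RNAs (lncRNAs) were examined in MCF10A cells grown with or without growth factors. A gene was included when its Ensembl identifier carried the type lncRNA in Gencode v44 and its mean over the 6 libraries was at least 300 normalized counts, that is, reads divided by a size factor for library depth. Of the 19198 genes in the table, 2555 were lncRNAs and 78 reached this level. The genes were thus chosen by their mean level over all 6 libraries, and the values just inside the limit were 302.4 for LINC00938, 303.2 for LINC00472 and 311.7 for ENSG00000240207. Just outside it were ITGB8-AS1 at 296.8, JPX at 288.9 and UBA6-DT at 283.0 normalized counts. All 78 genes passed the minimum mean of 10 that was set for testing. The values of 77 of them were examined singly, and 1 on the X chromosome is counted in every total but its values are not shown.

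MCF10A is an established, non-tumorigenic line of human mammary epithelial cells. The 3 control samples were grown with 5% horse serum, human insulin at 10 µg/ml, recombinant human EGF at 20 ng/ml, cholera toxin at 100 ng/ml and hydrocortisone at 0.5 µg/ml, and the 3 growth factor depleted samples with 5% horse serum alone among these. Antibiotics and glutamine were in both media. The comparison asks what changes in a cell model in which withdrawal of these factors turns a cobblestone epithelial shape into a spindle shape. The design text gives 2 replicates where the labels and the columns give 3, the day of RNA isolation is not given, and nothing says that replicates were separate cultures, so that the p-values measure the spread between these samples, which may be technical.

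LncRNAs are transcripts that are spliced and processed much as mRNAs are but are not known to encode protein. Some stay in the nucleus, where MALAT1 lies in the speckles that hold splicing factors and NEAT1 forms the scaffold of paraspeckles. Others, named SNHG for small nucleolar RNA host gene, carry small nucleolar RNAs (snoRNAs) in their introns. SnoRNAs guide the modification of ribosomal RNA. Several hosts begin with the same run of pyrimidines that marks mRNAs of the translation machinery, and their spliced exons are often destroyed by nonsense-mediated decay. A further class holds microRNA hairpins that are cut out of the nascent transcript.

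The libraries held between 7472418 and 28672630 reads on genes, with control replicate 2 the deepest and depleted replicate 3 the shallowest. A floor of 3 reads was between 1.76 and 6.71 normalized counts, and each of the 78 lncRNAs was above it in every library, with 9 reads as the lowest value. Without molecular identifiers on the reads, intervals and floors cover only the error of counting. Epithelial markers were present and mixed, and the labels call the cells luminal ductal. The basal keratin KRT17 lay between 5882 and 123480 normalized counts, but the basal keratin KRT14 only between 12.8 and 980. The luminal or general epithelial keratins KRT8 and KRT18 lay between 2442 and 19305 and between 1716 and 9436. Of the blood markers, PTPRC was at most 13.8 and LYZ at most 25.1 normalized counts, and CD3E and HBB were not listed. Of the fat markers, PLIN1 lay between 7.9 and 57.1 and ADIPOQ was not listed. Of the vessel markers, VWF was at most 13.4 and PECAM1 ran from 91.5 to 1582, whereas CDH5 had 8.8, 4.1 and 4.9 in the controls and 25.6, 118.7 and 100.6 in the depleted libraries. The part of such cells in the results was not tested. Control replicate 3 and depleted replicate 1 stood apart. Control replicate 3 had 1615 normalized counts of TP63 against 271 and 359 in the other controls, and depleted replicate 1 had 562 of KRT5 and 610 of CDH1 against at least 10908 and 13118 in the other depleted libraries. In bulk samples, fewer cells of a type and less RNA per cell cannot be told apart.

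The first bases of 4 snoRNA hosts are shown because they begin with a C followed by pyrimidines, the known mark of transcripts whose translation is controlled together with that of ribosomal proteins. None of these 4 passed the test on depletion. Each line gives 10 bases before and 30 bases from the annotated start, from RefSeq on GRCh38.p14, with the C at the start and its run of pyrimidines in capitals.
SNHG12: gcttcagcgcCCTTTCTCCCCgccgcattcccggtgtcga
SNHG5: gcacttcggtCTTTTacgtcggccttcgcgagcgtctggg
ZFAS1: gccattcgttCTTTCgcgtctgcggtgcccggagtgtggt
SNHG32: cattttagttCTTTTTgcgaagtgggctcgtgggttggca
A start of C with a run of at least 5 pyrimidines was found in these 4 of the 13 named hosts with a RefSeq window (30.8%), in 0 of the 42 other abundant lncRNAs with a window and in 5.23% of the 11128 windows of tested genes. This measure was chosen after the values were seen and rests on the start that RefSeq annotates. The runs were 11 bases in SNHG12, 6 in SNHG32 and 5 in SNHG5 and ZFAS1. SNHG32 was the only named host with a positive fold change. Among the 13, GAS5 and SNHG3 are counted without a run, but their RefSeq starts lie upstream of the first bases of these genes in Gencode v44. In the 4 hosts shown, the RefSeq start lies downstream of the first base in Gencode v44. Runs at the first bases in Gencode v44 were therefore not looked for, and whether the runs go with the change on depletion was not tested.

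The promoter windows of the 3 hosts that were called lower, GAS5, SNHG1 and SNHG8, are shown because the 3 moved together. They run from 250 bases before to 50 bases after the RefSeq start, on GRCh38.p14. GAS5 is at chr1:173868996-173869295 on the minus strand, upstream of the gene's first base in Gencode v44, SNHG1 at chr11:62855836-62856135 on the minus strand, and SNHG8 at chr4:118278512-118278811 on the plus strand. Capitals mark exact matches, on either strand, to the RUNX motif TGTGGT or the E-box CACCTG, which SNAI and ZEB repressors bind. In GAS5 the matches to both motifs lie next to each other, and their letters overlap.
GAS5: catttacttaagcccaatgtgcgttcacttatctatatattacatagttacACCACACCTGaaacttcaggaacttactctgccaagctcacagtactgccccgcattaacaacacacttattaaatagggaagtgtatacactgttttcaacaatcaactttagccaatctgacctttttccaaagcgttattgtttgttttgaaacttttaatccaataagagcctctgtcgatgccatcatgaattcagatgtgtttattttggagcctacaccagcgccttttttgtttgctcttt
SNHG1: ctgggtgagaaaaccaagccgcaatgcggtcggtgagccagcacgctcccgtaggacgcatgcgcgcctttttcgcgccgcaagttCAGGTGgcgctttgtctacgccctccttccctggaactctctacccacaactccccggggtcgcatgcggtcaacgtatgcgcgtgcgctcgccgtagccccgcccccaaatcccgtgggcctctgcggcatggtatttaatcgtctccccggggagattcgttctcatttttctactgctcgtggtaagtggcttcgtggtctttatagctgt
SNHG8: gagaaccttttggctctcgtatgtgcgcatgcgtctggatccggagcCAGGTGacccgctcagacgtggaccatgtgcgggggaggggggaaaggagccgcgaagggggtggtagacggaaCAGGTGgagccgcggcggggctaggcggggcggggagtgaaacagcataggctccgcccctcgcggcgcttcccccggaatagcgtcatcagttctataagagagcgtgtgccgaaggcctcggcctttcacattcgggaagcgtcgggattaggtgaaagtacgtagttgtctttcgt
Of the 55 abundant lncRNAs with a window, 9 held TGTGGT (16.4%, against 9.33% of all 11128 windows) and 15 held CACCTG (27.3%, against 18.5%). The TEAD motif GGAATG was in 9 (16.4%, against 11.1%), the AP-1 motif TGAGTCA in 4 (7.27%, against 3.22%) and the cAMP response element TGACGTCA in 0 (against 3.31%). These letters describe the windows and are not evidence of binding.

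A selection of the mature microRNAs that lie in the abundant hosts is shown to give the families that share a seed, miR-205, and the microRNA of a pair of copied genes. Of the miR-30 family only miR-30a is shown. Those of the remaining hosts, such as FTX, MUC20-OT1 and GABPB1-AS1, are not shown. Bases 2 to 8, the seed that pairs with target mRNAs, are in capitals, and the microRNAs are given by shared seed, from RefSeq. The libraries measured the hosts and not the mature microRNAs.
let-7a-5p in MIRLET7BHG and MIR100HG: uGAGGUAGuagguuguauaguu
let-7b-5p in MIRLET7BHG: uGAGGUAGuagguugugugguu
let-7i-5p in MIRLET7IHG: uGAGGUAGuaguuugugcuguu
miR-29a-3p in LINC-PINT: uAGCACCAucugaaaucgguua
miR-29b-3p in LINC-PINT and MIR29B2CHG: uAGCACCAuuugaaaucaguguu
miR-29c-3p in MIR29B2CHG: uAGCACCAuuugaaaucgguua
miR-221-3p in MIR222HG: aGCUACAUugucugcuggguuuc
miR-222-3p in MIR222HG: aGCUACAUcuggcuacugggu
miR-30a-5p in LINC00472: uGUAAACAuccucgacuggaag
miR-205-5p in MIR205HG: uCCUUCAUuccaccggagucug
miR-4435 in CYTOR and MIR4435-2HG: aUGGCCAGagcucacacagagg
The let-7 seed, the miR-29 seed, the seed of miR-221 and miR-222 and the miR-30 seed were each held by more than 1 hairpin. The seed of miR-30a-5p is also that of miR-30c-5p, which lies in LINC00472 too. CYTOR and MIR4435-2HG are near-identical copies on chromosome 2 that hold the same microRNA, so reads could be split between them or lost, and their values are uncertain.

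The level of these lncRNAs was very uneven. MALAT1 (chr11:65497640-65508073, plus strand) had a mean of 140615 normalized counts and NEAT1 (chr11:65422774-65445540, plus strand) 33052, and no other lncRNA reached 10000. NORAD, which binds Pumilio proteins in the cytoplasm, followed with 8816 and SNHG29 with 5513. In all, 19 lncRNAs had a mean of at least 1000 and 59 were below it, and the median of the 78 was 604.1. Per kilobase of exon the order was MALAT1 (13477 normalized counts per kilobase), NORAD (1632), NEAT1 (1452), SNHG29 (616) and MIR205HG (599), followed by SNHG32, GAS5, FGD5-AS1, SNHG6 and SNHG16. KCNQ1OT1, an imprinted transcript of 92625 exonic bases, was the 14th by level but only the 74th per kilobase.

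**Figure D1:**
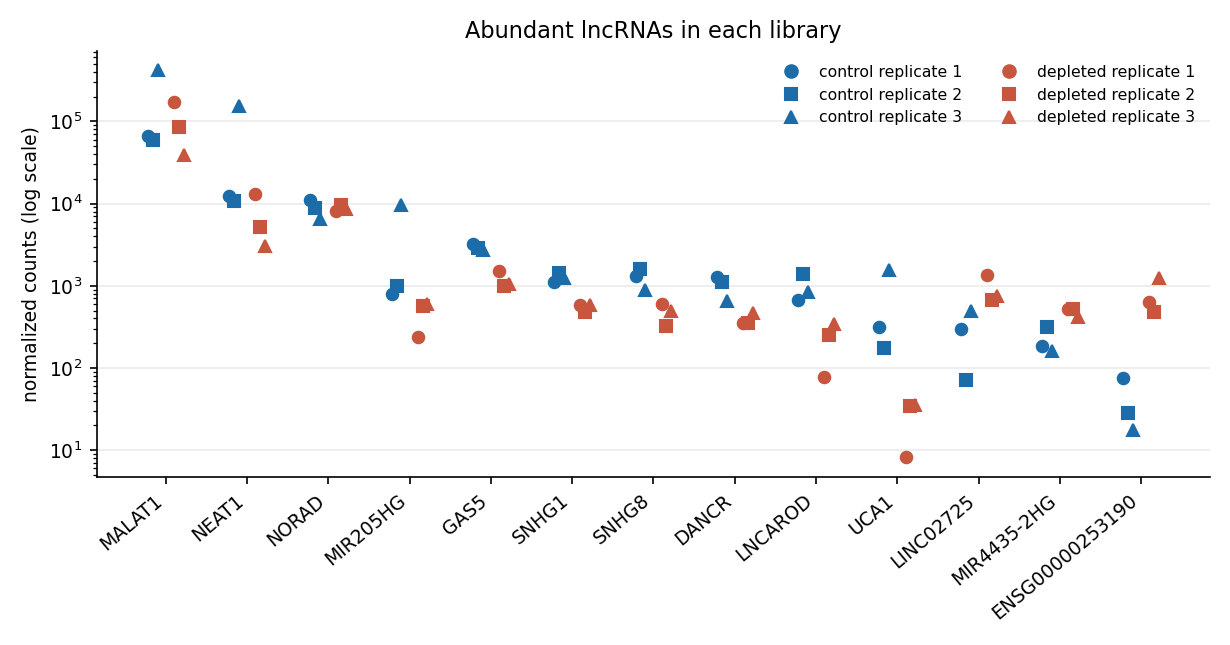
Normalized counts (log scale) of 13 abundant lncRNAs in each of the 6 libraries, with control in blue and depleted in red and a marker shape for each replicate number. MALAT1, NEAT1, MIR205HG and UCA1 were highest in control replicate 3, whereas GAS5, SNHG1 and SNHG8 were lower in every depleted library than in every control.

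On depletion, 1 of the 78 lncRNAs was called higher (1.28%, against 4.36% of the 16988 genes tested) and 4 were called lower (5.13%, against 1.97%), by limma at an adjusted p under 0.05 with at least 2-fold change. The gene called higher was ENSG00000253190, and those called lower were UCA1, GAS5, SNHG1 and SNHG8. The median log2 fold change was -0.18 for the 78 lncRNAs, -0.03 for all genes tested and -0.09 for the 8682 genes of other types with the same minimum mean. Without control replicate 3 the median of the lncRNAs was 0.06, and 4 were called higher and 8 lower. Without depleted replicate 1, 1 was called higher and 1 lower. At an unadjusted p under 0.05 there were 3 higher and 16 lower, that is 19 of the 78, against 3400 of the 16988 genes tested. The groups did not overlap for 6 lncRNAs that were higher (7.69%, against 13.5% of all genes tested) and 17 that were lower (21.8%, against 12.1%). No permutation of 3 against 3 samples can give a p under 0.1.

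UCA1 (urothelial cancer associated 1), a lncRNA first described in bladder cancer, fell the most. It lies at chr19:15828206-15836328 on the plus strand. It had 316, 173 and 1544 normalized counts in control replicates 1, 2 and 3 and 8.2, 34.1 and 35.8 in depleted replicates 1, 2 and 3. The lowest control was 4.83 times the highest depleted library, although the controls themselves differed up to 8.93-fold. The log2 fold change was -4.27 ± 0.86 (SE; 19.25-fold lower, adjusted p = 0.0238). Its mean was 677 ± 754 (SD, n = 3) in the controls and 26 ± 15.4 in the depleted libraries, so that it reached the level limit through the controls, chiefly control replicate 3. The call held without control replicate 2 or 3, and was lost without control replicate 1 (adjusted p = 0.0708) or depleted replicate 1 (0.0551), 2 (0.0622) or 3 (0.0532). Exons on the opposite strand cover 26.1% of its exons, and whether reads were counted by strand is not given in the sources used here.

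ENSG00000253190, a lncRNA with no name at chr8:66112667-66126632 on the plus strand, rose the most. It had 76.4, 28.1 and 17.7 normalized counts in control replicates 1, 2 and 3 and 638, 480 and 1225 in depleted replicates 1, 2 and 3. Every depleted library was at least 6.28 times the highest control. The log2 fold change was 4.37 ± 0.59 (20.75-fold, adjusted p = 0.00452), and it was called in all 6 fits that left out 1 library. It shares no exon with another annotated gene. Its mean was 40.8 ± 31.3 (SD, n = 3) in the controls and 781 ± 393 in the depleted libraries, so that it reached the level limit through the depleted libraries.

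Most named snoRNA hosts had a negative fold change, but few were called. Of the 14 among the abundant lncRNAs (GAS5, ZFAS1, DANCR, EPB41L4A-AS1 and 10 SNHG genes), 3 were called lower (21.4%, against 1.97% of all genes tested) and 0 higher. Of the 14 hosts, 10 were lower with groups that did not overlap (71.4%, against 12.1%). In all, 13 hosts had a negative log2 fold change, against 8809 of the 16988 genes tested. Their median log2 fold change was -0.90, and -0.96 without control replicate 3, whereas the median of the other 64 abundant lncRNAs was 0.06 (0.35 without it). At an unadjusted p under 0.05 there were 10 of the 14 hosts, against 3400 of the 16988 genes tested. Over 19 fits, among them edgeR, DESeq2, other scalings and every fit without 1 library, at least 13 of the 14 stayed negative, and the number called lower ran from 0 to 6, with 0 in 7 of the 19.

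**Figure D2:**
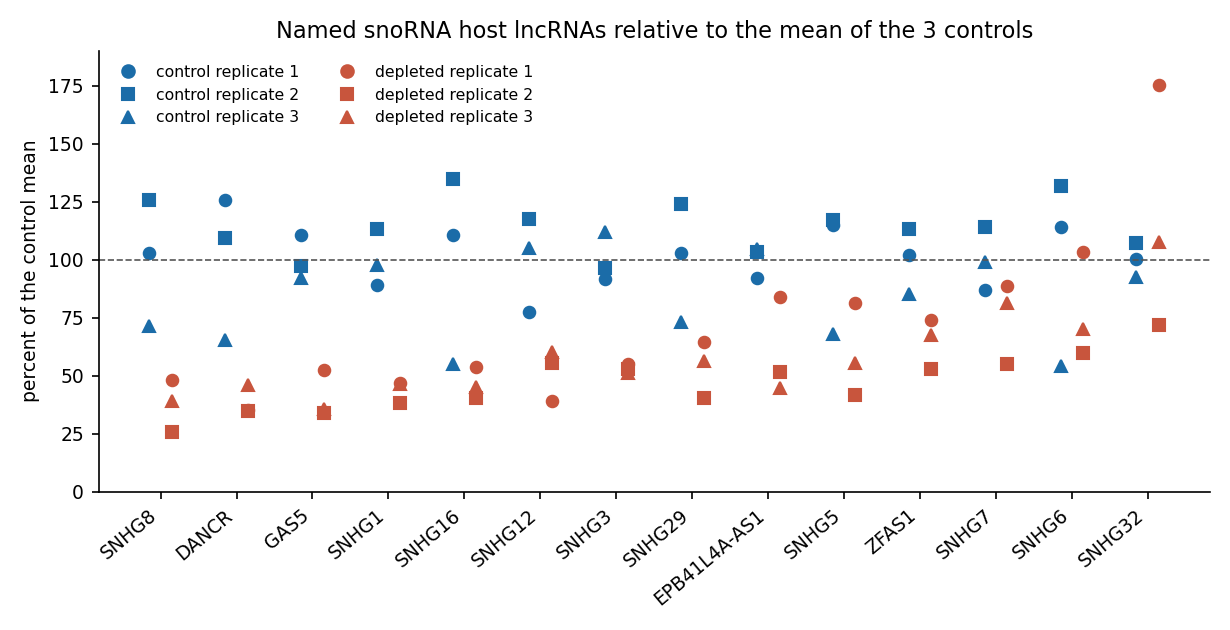
Each library's value as a percent of the mean of the 3 controls (dashed line at 100) for the 14 named snoRNA host lncRNAs, ordered by log2 fold change, with control in blue and depleted in red. SNHG8, DANCR, GAS5 and SNHG1 lay between 25.7% and 52.2% in the depleted libraries, and SNHG32 reached 175% in depleted replicate 1.

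GAS5 (growth arrest-specific 5), which builds up when growth stops and translation slows in other cells, had 3251, 2850 and 2705 normalized counts in control replicates 1, 2 and 3 and 1532, 996 and 1049 in the depleted ones. The groups lay well apart, with the lowest control 1.77 times the highest depleted library. It fell from 2935 ± 283 to 1192 ± 296 (SD, n = 3), with a log2 fold change of -1.32 ± 0.28 (SE; adjusted p = 0.0281). SNHG1, which holds 7 annotated snoRNAs, had 1119, 1424 and 1228 in the controls and 587, 479 and 581 in the depleted libraries. It fell from 1257 ± 155 to 549 ± 60.5, with a log2 fold change of -1.19 ± 0.26 (adjusted p = 0.0322). SNHG8 had 1298, 1588 and 900 in the controls and 606, 325 and 494 in the depleted libraries, so its groups were closer, with control replicate 3 as the lowest control. It fell from 1262 ± 345 to 475 ± 142, with a log2 fold change of -1.42 ± 0.35 (adjusted p = 0.0492, and 0.0539 with edgeR). GAS5 kept its call without control replicate 3 or depleted replicate 1, and SNHG1 and SNHG8 only without control replicate 3. With any other library left out the adjusted p lay between 0.077 and 0.147 for GAS5, between 0.0656 and 0.155 for SNHG1 and between 0.0545 and 0.192 for SNHG8.

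The other hosts did not pass the test. DANCR, known for keeping progenitor cells undifferentiated, was nearest, with 1268, 1106 and 658 normalized counts in the controls, 353, 352 and 465 in the depleted libraries and a log2 fold change of -1.33 ± 0.33 (adjusted p = 0.0524). It was called without control replicate 3 (adjusted p = 0.0102). SNHG16 had 3222, 3935 and 1601 against 1572, 1177 and 1319, with control replicate 3 close to the depleted libraries. Without control replicate 3, SNHG16 (log2 fold change -1.40, adjusted p = 0.014) and SNHG29 (-1.10, adjusted p = 0.0482) were called as well. SNHG12, SNHG3 and SNHG29 had log2 fold changes of -0.96, -0.91 and -0.89, with groups that did not overlap (adjusted p = 0.125, 0.070 and 0.178). EPB41L4A-AS1 (-0.79) and ZFAS1 (-0.63) did not overlap either, whereas SNHG5 (-0.76), SNHG7 (-0.43), SNHG6 (-0.30) and SNHG32 (0.15) did. In 9 of the 14 hosts the highest library was control replicate 2. Control replicate 3 was not high for these genes, with a median log2 ratio of -0.26 to the mean of the other controls.

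Among all 29 snoRNA host lncRNAs tested, including those below the level limit, 4 were called lower (13.8%, against 1.97% of all genes tested) and 0 higher. Of the 29, 24 had a negative log2 fold change (against 8809 of the 16988 genes tested) and 15 were lower with groups that did not overlap (51.7%, against 12.1%). The median of the 29 was -0.76. The fourth host called lower was SNHG19, with 437, 372 and 331 normalized counts in the controls and 177, 100 and 119 in the depleted libraries (log2 fold change -1.55 ± 0.35, adjusted p = 0.0366). The core factors of nonsense-mediated decay, which acts on such transcripts, showed 0 calls among 10 tested (against 4.36% higher and 1.97% lower of all genes tested). Their log2 fold changes ran from -0.77 for UPF3B to 0.21 for SMG8, with 0 calls by edgeR or DESeq2 and 0 at an unadjusted p under 0.05.

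Several other lncRNAs were 2-fold or more apart with groups that did not overlap but were not called. LNCAROD, described as a lncRNA that activates DKK1, had 668, 1395 and 838 normalized counts in control replicates 1, 2 and 3 and 76.9, 251.8 and 342.1 in the depleted ones (log2 fold change -2.29 ± 0.56, adjusted p = 0.0505). It was lower in all 3 depleted libraries, and depleted replicate 1 was the lowest. CRNDE had 793, 604 and 1003 against 326, 351 and 407 (-1.12 ± 0.30, adjusted p = 0.0665), and THAP9-AS1 had 842, 756 and 779 against 341, 489 and 349 (-1.03 ± 0.28, adjusted p = 0.0698). THAP9-AS1 was called without control replicate 3 (-1.04, adjusted p = 0.0431). Of the higher ones, LINC02725 had 295, 70.9 and 488 normalized counts in the controls and 1337, 677 and 760 in the depleted libraries (2.02 ± 0.66, adjusted p = 0.123). It was called without control replicate 3 (adjusted p = 0.0331). MIR4435-2HG had 183, 313 and 161 against 525, 525 and 423 (1.21 ± 0.35, adjusted p = 0.083), and its copy CYTOR 271, 481 and 113 against 543, 438 and 465, with groups that overlapped (0.97 ± 0.50, adjusted p = 0.338). NORAD had 11025, 8931 and 6544 in the controls and 8031, 9733 and 8631 in the depleted libraries, and OIP5-AS1 had 3416, 2184 and 1934 against 2831, 3328 and 3636.

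MALAT1, the most abundant lncRNA, differed more within the groups than between them. It had 66063, 59360 and 419618 normalized counts in control replicates 1, 2 and 3 and 173985, 85784 and 38876 in depleted replicates 1, 2 and 3. The controls differed up to 7.07-fold and the depleted libraries up to 4.48-fold. The log2 fold change was -0.50 ± 0.95 (adjusted p = 0.832), and it turned to 0.41 without control replicate 3 and 0.05 without depleted replicate 3. NEAT1 had 12180, 10879 and 154056 in the controls and 12932, 5255 and 3010 in the depleted libraries, with groups that overlapped through depleted replicate 1 (-2.21 ± 1.01, adjusted p = 0.270). Without control replicate 3 its log2 fold change was -0.97. NEAT1 was 18.4%, 18.3% and 36.7% of MALAT1 in the 3 controls and 7.43%, 6.13% and 7.74% in the 3 depleted libraries, so this share was lower in every depleted library, also without control replicate 3. The share was formed after the values were seen and was not tested.

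Control replicate 3 held far more of these RNAs. The 78 lncRNAs took 0.832% and 0.825% of the counts in control replicates 1 and 2 but 4.57% in control replicate 3, against 1.64%, 1.04% and 0.606% in depleted replicates 1, 2 and 3. MALAT1 alone took 2.78% of the reads of control replicate 3 (95% Wilson interval 2.772 to 2.788) and NEAT1 1.021% (1.016 to 1.026). With both left out, the other 76 still took 0.771% there against 0.402% and 0.407% in the other controls and 0.355% to 0.476% in the depleted libraries. MALAT1 was named with this library when the comparison was chosen, so that the values of control replicate 3 are a description, with no test.

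**Figure D3:**
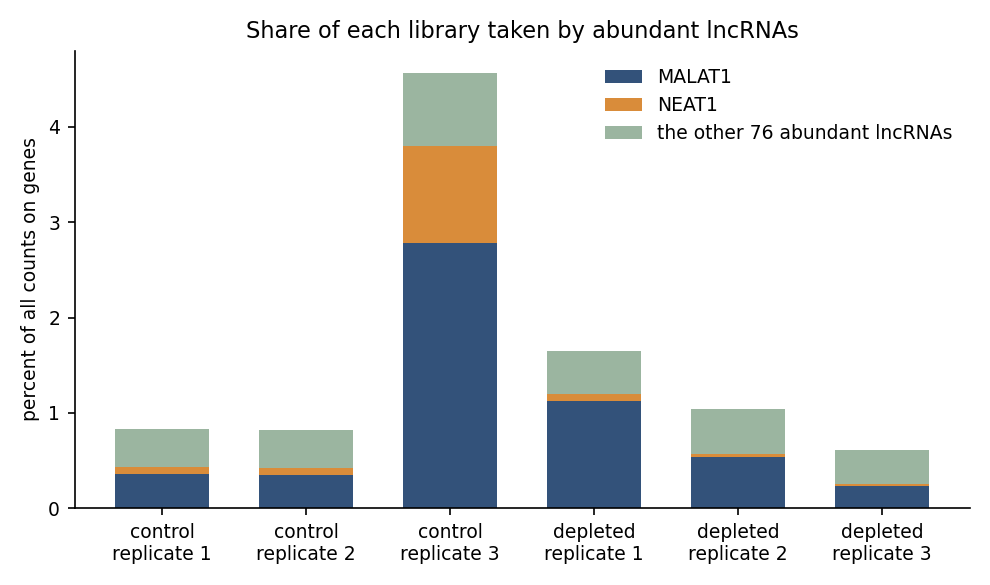
Percent of all counts on genes taken by MALAT1, NEAT1 and the other 76 abundant lncRNAs in each library, as stacked bars that start at 0. The bar of control replicate 3 reaches 4.57%, and the next highest, depleted replicate 1, 1.64%.

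Of the 78 lncRNAs, 30 were at least 2-fold higher in control replicate 3 than in both other controls (38.5%, against 16.8% of all genes tested) and 3 at least 2-fold lower (3.85%, against 13.5%). The median log2 ratio to the mean of the other controls was 0.68 (1.60-fold), compared with -0.06 for all genes tested and -0.32 for genes of other types with the same minimum mean, of which 5.87% were 2-fold higher and 15.9% lower. In 38 of the 78 (48.7%) control replicate 3 was the highest of the 6 libraries, compared with 26.2% of all genes tested. The limit rests on a mean that includes control replicate 3, and with a median of at least 300 as the limit 21 of 65 lncRNAs were higher there (32.3%). Of the less abundant lncRNAs, 43.4% of the 1635 tested were 2-fold higher there, with a median log2 ratio of 1.11. The counts were 32, 30, 30 and 30 higher with rescaling to the same total, size factors of protein-coding genes, quantile normalization and a correction for the length and GC content of transcripts.

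After NEAT1 (13.36-fold over the mean of the other controls), the largest ratios were those of ENSG00000271533 (12.83-fold), MIR205HG (10.61-fold), LINC-PINT (8.2-fold), MIRLET7IHG (7.02-fold), RIPK2-DT (6.76-fold) and MALAT1 (6.69-fold). ENSG00000271533, at chrX:74209976-74213660 on the minus strand, lies within the span of FTX on the same strand but shares no annotated exon with it. The values of ENSG00000271533 and FTX may therefore not be independent. ENSG00000271533 had 122, 45.1 and 1081 normalized counts in control replicates 1, 2 and 3, and RIPK2-DT 298, 201 and 1694. FTX, which lies in the X-inactivation centre and holds 4 microRNA genes, had 204, 95.5 and 931, and KCNQ1OT1 815, 489 and 3104. UCA1, GARS1-DT and TTN-AS1 were among the others that were high there, at 6.30-fold, 5.21-fold and 4.29-fold. The 3 lncRNAs that were 2-fold lower were CYTOR (271, 481 and 113), SNHG6 (1227, 1419 and 581) and SNHG16 (3222, 3935 and 1601). ENSG00000253190 and DANCR were lower there too, but by less than 2-fold of the nearer control.

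Ratios were larger for the microRNA hosts than for the named snoRNA hosts. Of the 17 abundant hosts, 11 were at least 2-fold higher in control replicate 3 than in both other controls (64.7%, against 16.8% of all genes and 43.1% of all lncRNAs tested) and 1, CYTOR, was lower, with a median of 4.55-fold over the mean of the other controls (2.14-fold for all lncRNAs tested). NEAT1 is one of the 11, because the microRNA gene MIR612 lies in its span. Of all 34 microRNA host lncRNAs tested by name, which leave out NEAT1, 12 were higher (35.3%, below the 43.1% of all lncRNAs tested), with a median of 2.10-fold. Of the named snoRNA hosts 0 of 14 were higher and 2 lower. Since DANCR holds both kinds of small RNA it is counted in both classes, and 48 lncRNAs are in neither, of which 19 were higher and 0 lower. The spread of the controls restates these ratios, because it includes control replicate 3. The median highest over lowest control was 5.13 for microRNA hosts, 1.42 for named snoRNA hosts and 1.87 for protein-coding genes with the same minimum mean. Between control replicates 1 and 2 alone these medians were 1.28, 1.15 and 1.28.

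**Figure D4:**
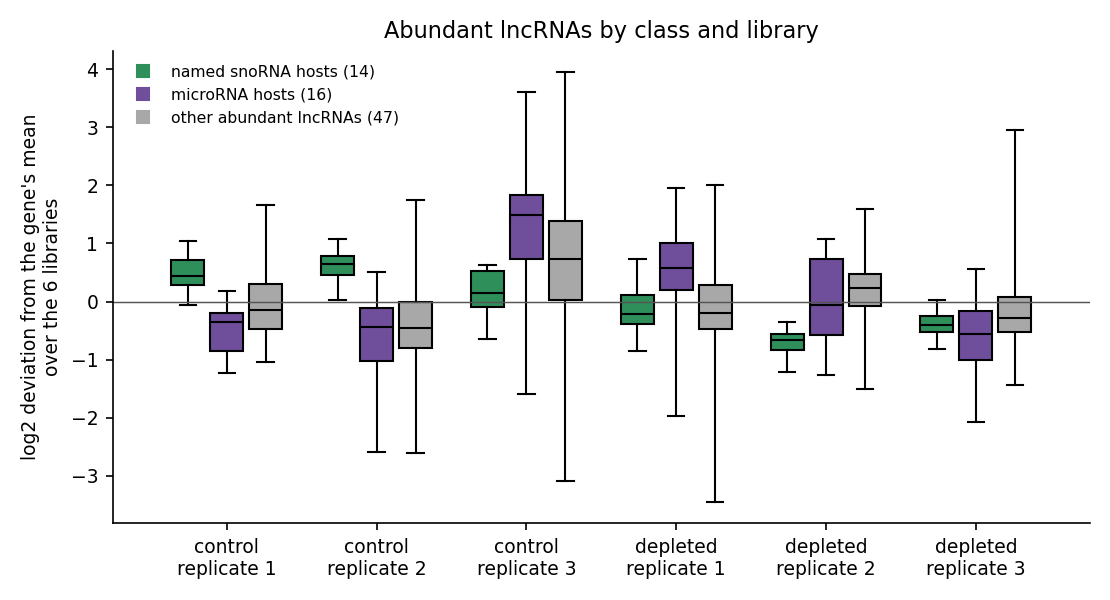
Log2 deviation of each lncRNA from its own mean over the 6 libraries, by class and library; boxes span the quartiles, lines in them mark the median and whiskers reach the extremes. DANCR is drawn with the 14 snoRNA hosts, and the medians in control replicate 3 were 0.15 for these, 1.48 for the other 16 microRNA hosts and 0.74 for the remaining 47 lncRNAs shown.

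MIR205HG, host of the basal epithelial microRNA miR-205, had 787, 1001 and 9494 normalized counts in control replicates 1, 2 and 3 and 235, 572 and 599 in the depleted ones. Every depleted library was below every control, but the spread of the controls was large (log2 fold change -2.18 ± 0.88, adjusted p = 0.208). Without control replicate 3 the log2 fold change was -1.04. The let-7 hosts had groups that overlapped. MIRLET7BHG had 416, 534 and 2750 in the controls and 1899, 749 and 1022 in the depleted libraries, and MIRLET7IHG 90.2, 34.0 and 442 against 778, 427 and 159. MIRLET7IHG was higher than control replicates 1 and 2 in all 3 depleted libraries, and was called only without control replicate 3. The miR-29 hosts were high in control replicate 3 and depleted replicate 1, with 323, 164 and 1450 against 643, 125 and 85 for MIR29B2CHG and 170, 121 and 1203 against 1322, 315 and 145 for LINC-PINT. MIR222HG had 186, 213 and 713 in the controls and 540, 645 and 259 in the depleted libraries. MIR22HG, host of miR-22, was more even within the groups, with 485, 568 and 657 against 778, 749 and 1022, and its groups did not overlap (0.57 ± 0.28, adjusted p = 0.304). None of the 17 abundant hosts was called by limma, although 3 had an unadjusted p under 0.05 (against 3400 of the 16988 genes tested). EdgeR also called 0, and DESeq2 called MIR4435-2HG higher and DANCR lower. Of the 34 microRNA host lncRNAs tested by name, 2 were called higher (5.88%, against 4.36% of all genes tested) and 0 lower (against 1.97%). They were MIR137HG (log2 fold change 4.71, adjusted p = 0.00827) and MIR181A2HG (2.47, adjusted p = 0.044), both below the level limit.

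**Figure D5:**
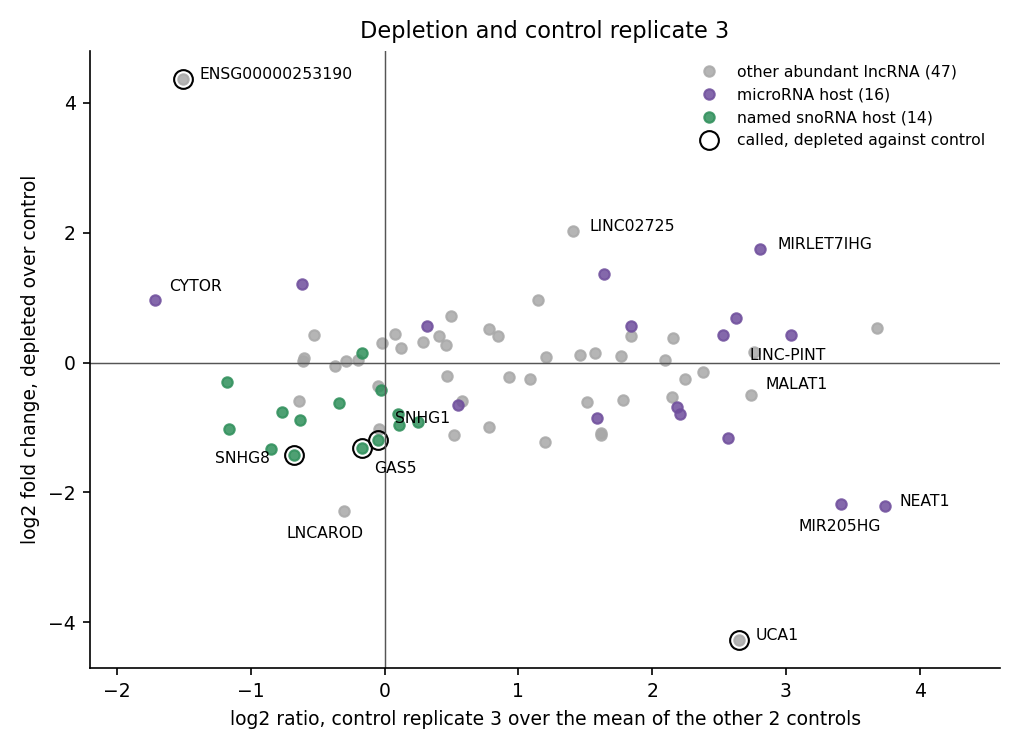
Log2 fold change of depleted over control (vertical) against the log2 ratio of control replicate 3 to the mean of the other 2 controls (horizontal) for 77 abundant lncRNAs, coloured by class, with circles around the 5 that were called. Both axes use control replicate 3, so no correlation is given; the snoRNA hosts lie at the lower left and centre, and the microRNA hosts mostly to the right.

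From a list of RNAs known to be held in the nucleus, 10 were tested. Of these, 9 were at least 2-fold higher in control replicate 3 than in both other controls (against 43.1% of all lncRNAs tested). JPX was the exception with a log2 ratio of 0.94. Of the 9, 7 were abundant lncRNAs (MALAT1, NEAT1, MIR205HG, KCNQ1OT1, LINC-PINT, FTX and PVT1), which were chosen by a mean that includes this library. MALAT1 was named with this library when the comparison was chosen, so the count is a description. TUG1, also among the 9, is protein-coding in Gencode v44. MIAT, which is less abundant, was the only gene of this list called on depletion (log2 fold change 4.06, adjusted p = 0.0248, not called by edgeR). Messenger RNAs for proteins of the same nuclear bodies were counted too. Of 16 paraspeckle proteins 2 were at least 2-fold lower in control replicate 3 (RBM3 and NUDT21), and 0 were called on depletion, with log2 fold changes from -0.66 for SFPQ to 0.44 for NONO and 0 at an unadjusted p under 0.05 (limma, edgeR and DESeq2 alike). Of 16 proteins of nuclear speckles and SR proteins, 1 was higher in control replicate 3 (SRRM2) and 0 lower, and 0 were called by any of these tools, with 1 at an unadjusted p under 0.05 by limma.

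Other features moved with control replicate 3. Mitochondrially encoded transcripts took 2.78% of its counts against 0.718% and 0.576% in the other controls, and replication-dependent histone genes 0.104% against 0.219% and 0.545%. Over 13035 genes, Spearman's rho of a gene's deviation with transcript length was 0.37 in this library, -0.36 in control replicate 2 and between -0.17 and 0.22 in the others. Over the 78 lncRNAs the rho of the control replicate 3 ratio with the longest transcript was 0.31, and 0.49 over the 8314 protein-coding genes with the same minimum mean. These are values across genes of the same libraries, without a test. With the correction for length and GC content the log2 ratio of MALAT1 went from 2.74 to 2.31 and that of NEAT1 from 3.74 to 2.46, and the median of the 78 from 0.68 to 0.74. The part of these features in the lncRNA values was not tested further.

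Of 20 tested lncRNAs that have been studied in EMT or breast cancer, 0 were called higher (against 4.36% of all genes tested). The 2 called lower were UCA1 and GAS5 (10.0%, against 1.97%). By limma 7 of the 20 had an unadjusted p under 0.05 (against 3400 of the 16988 genes tested). EdgeR called 0 higher and 2 lower, and DESeq2 3 higher and 3 lower. The median log2 fold change of the list was -0.27, which became 0.37 without control replicate 3. Among those below the level limit were HOTAIR (-0.65), H19 (1.41), NKILA (2.02) and MIR31HG (2.11), of which none passed the test. Of 3 imprinted lncRNAs tested (H19, GNAS-AS1 and KCNQ1OT1) 0 were called by limma, edgeR or DESeq2, and 0 had an unadjusted p under 0.05. PVT1, which neighbours MYC, had 318, 263 and 1350 normalized counts in the controls and 452, 363 and 130 in the depleted libraries, with groups that overlapped. TUG1, with a mean of 2547 normalized counts, is protein-coding in Gencode v44 and is not among the 78.

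The nearest tested protein-coding gene, by distance between starts, was called for 6 of the 78 lncRNAs, 4 lower (5.13%, against 1.97% of all genes tested) and 2 higher (2.56%, against 4.36%). PRSS12, whose exons overlap 37.6% of those of SNHG8 on the opposite strand, had 3223, 2006 and 1734 normalized counts in the controls and 180, 364 and 371 in the depleted libraries (log2 fold change -2.94 ± 0.39, adjusted p = 0.00389). It fell more than SNHG8, and reads of overlapping antisense exons cannot be told apart unless they were counted by strand. CYP4F11, a fatty acid hydroxylase 106661 bases from UCA1, had 147, 146 and 251 against 22, 33.4 and 29.1 (-2.61 ± 0.44, adjusted p = 0.0109). IRX5, a homeobox gene 1676 bases from CRNDE on the opposite strand, had 1910, 1486 and 1420 against 302, 511 and 425 (-1.98 ± 0.30, adjusted p = 0.00725). ERVMER34-1, beside DANCR, was called lower as well (-3.16 ± 0.66, adjusted p = 0.0258). ETS1, which is 491800 bases from LINC02725, was called higher (1.27 ± 0.30, adjusted p = 0.0413), and VEZF1, near ENSG00000264112, also (1.14, adjusted p = 0.0381).

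For the remaining called lncRNAs the neighbour was not called. SNHG1 and SLC3A2, the heavy chain of amino acid transporters, start 51 bases apart on opposite strands, and SLC3A2 had 16069, 5821 and 7641 normalized counts in the controls and 1136, 3650 and 2858 in the depleted libraries (-1.97 ± 0.53, adjusted p = 0.0686). ZBTB37, 800 bases from GAS5, had a log2 fold change of 0.49 (adjusted p = 0.574), and PDE7A, 270345 bases from ENSG00000253190, one of -0.01 (adjusted p = 0.996). In all, 15 abundant lncRNAs start within 1000 bases of a tested coding gene on the opposite strand. Such partners could differ in control replicate 3, as with RIPK2-DT and RIPK2, 6 bases apart, at log2 ratios of 2.76 and -0.55, or LINC-PINT and MKLN1, 80 bases apart, at 3.04 and 0.79.

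Exons of other annotated genes overlap many of these lncRNAs, on the same strand in 22 and on the opposite strand in 51, and 17 had over 20% of their exons covered. MALAT1 is covered over 83.7% of its exons by antisense annotation, TTN-AS1 over 54.9% by TTN, SNHG6 over 58.9% by MCMDC2 and EPB41L4A-AS1 over 51.2% by EPB41L4A. ENSG00000259623 lies wholly within KLHL11 exons on the same strand, and ENSG00000262160 wholly opposite NFATC3 exons and a further gene, so the values of these are uncertain.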

How the data were processed

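RNA-Seq of 6 MCF10A samples was used, 3 control and 3 growth factor depleted, grouped by the sample labels. Per the labels and the study's methods, total RNA was depleted of ribosomal RNA, made into strand-specific libraries, sequenced as single-end reads of 100 bases, trimmed with cutadapt 1.6, mapped to hg38 by TopHat2 and assigned to Gencode v22 genes by HTSeq 0.6. The strand setting is not given in the sources used here. The deposited signal values are counts that the authors divided by DESeq2 1.8.1 size factors and did not scale by gene length. Whole reads were recovered from the deposited values (100% whole within 0.001), between 7472418 and 28672630 per sample.

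Identifiers were matched to Gencode v44, which names 18913 of 19198 and lacks 285. The members and lists were chosen with earlier results of these data known. Differential expression was tested with limma 3.58.1 (trend) in R 4.3.3 on log2 values with a pseudocount of 1 for the 16988 genes whose mean reached 10, with Benjamini-Hochberg adjustment over all of them, and a gene was called at an adjusted p under 0.05 with at least 2-fold change. Fold changes are on this log2 scale and are understated for low genes. Control replicate 3 was compared with the other controls without a test. LncRNAs were named in the text by level, by call, by non-overlapping groups, by the control replicate 3 ratio and by list. Sequences came from RefSeq tables on GRCh38.p14, which hold windows for 55 of the 78. The scripts were tested on simulated data.

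Other settings tried were a pseudocount of 0.5 or 10, no filter, a mean of at least 50, the same total, quantile normalization, no trend, the replicate number as a block, a correction for the length and GC content of transcripts, each library left out, edgeR 4.0.16 and DESeq2 1.42.0 on the recovered reads, and level limits of a mean of 200 or 500 or a median of 300. For the control replicate 3 comparison, control replicate 1 or 2 was left out as an alternative chosen after seeing the data. Tables were made with pandas 2.3.3, numpy 2.4.6 and scipy 1.17.1 in Python 3.11.15, and figures with matplotlib 3.10.9.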

Additional observations from a re-analysis of the deposited data

How the results depend on the processing

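Only ENSG00000253190 was called under all 18 alternatives of the depletion test. For the number of abundant lncRNAs called higher in depleted cells, 1 in the test reported, the values were 2 with DESeq2, 3 with a level limit of 200, and 0 with a limit of 500 or with a median of at least 300, and leaving out 1 library gave 1 to 4. For the number called lower, 4 in the test reported, the values were 1 with limma without trend, 7 with DESeq2 and 2 with the length and GC correction with the replicate block, and leaving out 1 library gave 0 to 8, the highest without control replicate 3. Of the lower calls, UCA1 was made in 14 of 18 alternatives, GAS5 in 11, SNHG1 in 10 and SNHG8 in 6, each with the same direction in all 18. MALAT1 changed sign without control replicate 3 (log2 fold change 0.41) and without depleted replicate 3 (0.05), and leaving out 1 library gave -1.03 to 0.41. Whether the replicate numbers pair the samples cannot be told from these values. Same-numbered libraries had correlations of their deviations from the group means of -0.073, -0.283 and -0.323. Libraries with different numbers had correlations from -0.068 to 0.291. Deviations from a mean of 3 libraries are not independent of each other, so these correlations cannot decide the question. With the replicate block 2 lncRNAs were called higher (ENSG00000253190 and LINC02725) and 3 lower (UCA1, MIR205HG and LNCAROD).

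For control replicate 3, the number at least 2-fold higher than in both other controls, 30 as reported, was 17 of 46 with a level limit of 500, 21 of 65 with a median of at least 300 and 31 to 38 with control replicate 1 or 2 left out. The number lower, 3 as reported, was 0 with the same total, 1 with protein-coding size factors and 1 with the length and GC correction. The median log2 ratio, 0.68 as reported, lay between 0.46 and 0.89 under the other settings. The cause of these changes was not tested. Precision was limited by the 3 samples in each group, with control replicate 3 and depleted replicate 1 apart from the others. The depth of 7472418 reads in depleted replicate 3 limits its lowest genes, and UCA1 had 9 reads in its lowest library, depleted replicate 1.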

Other observations

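Among the 1635 lncRNAs tested below the level limit, 39 were called higher and 20 lower in depleted cells. These were 2.39% and 1.22%, against 4.36% and 1.97% of all genes tested. Control replicate 3 was the highest library for 857 of them (52.4%), and their median log2 fold change went from 0.03 to 0.48 when this library was left out. Abundant lncRNAs also varied more within each group than protein-coding genes of the same minimum mean, with median coefficients of variation of 42.0% and 31.8% in the controls and 33.1% and 19.1% in the depleted libraries. Between control replicates 1 and 2 alone the median highest over lowest value was 1.28 for both kinds of gene. The named snoRNA hosts were at 17.3% and 23.4%. These values are descriptions without a test.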
